A study of Gallus gallus with 16 samples.

Results

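The enzymes described here turn acetyl-CoA into cholesterol in the chicken liver. They are the 10 genes HMGCS1, ACAT2, MVD, FDFT1, SQLE, LSS, CYP51A1, MSMO1, NSDHL and DHCR7, found by their exact symbol in the platform annotation. All 10 of 10 were found, on 12 of 20804 features, and each gene was read from its feature with the highest mean over the arrays. MVD and FDFT1 each had a second, dim feature with a mean of 4.80 and 5.17, which followed the bright one over the birds with r = 0.65 and r = 0.48.

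Livers of 16 male broiler chickens, a meat type of Gallus gallus, were sampled on day 21, and each bird was measured on 1 array. The birds received diet E, diet F, diet H or diet A, and 4 birds were taken from each. An essential oil blend and saponins are named in the title of the series, but no label ties a letter to a supplement or to plain feed. Diet A is the lower term of each difference with it because of its letter only.

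Cholesterol is built from acetyl-CoA by way of mevalonate, squalene and lanosterol. The early enzymes make the isoprenoid units, the middle ones join and close them into the first sterol, and the late ones trim that sterol to cholesterol. The liver is a main site of the pathway, and in vertebrates most of its genes are switched on together by SREBP2, the product of SREBF2, when cell sterol is low.

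Levels are the deposited log2 values, so that a difference of 1 is a doubling of signal. All 10 enzymes lay above 4.31, the 20th percentile of all values, on 16 of 16 arrays. The array medians ran from 6.11 to 6.21. Replicates 3 and 4 of diet H stood apart, with mean correlations of 0.948 and 0.946 with the other arrays, against at least 0.966 in the other 14 birds. Values that the results on diet H turn on are therefore also given without them. Hepatocyte markers such as ALB and APOA1 were abundant in every bird, with a mean over 11 measured markers of 12.76 to 13.04. In such bulk tissue, fewer cells of a type and less RNA per cell cannot be told apart. Birds whose title number is above 25 (replicates 3 and 4 of each diet) are compared separately from those up to 25 where this bears on a result, since the labels give no other sign of a batch.

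The first steps differed in their pattern. ACAT2, the cytosolic thiolase that joins acetyl-CoA units, was at 9.97, 9.59, 9.90 and 10.005 under diet E, at 9.86, 9.68, 10.13 and 9.65 under diet F, and at 9.61, 9.91, 10.31 and 10.21 under diet H, against 9.41, 9.65, 9.69 and 9.42 under diet A. The birds of diet A were at the low end, and each other diet overlapped them by at least 1 bird. HMGCS1, the synthase that makes HMG-CoA, was at 12.12, 12.36, 11.06 and 11.57 under diet E, at 12.11, 12.04, 11.87 and 11.42 under diet F, and at 12.54, 12.49, 11.20 and 10.97 under diet H, against 12.23, 12.82, 12.05 and 11.97 under diet A. Here diet A held the highest bird, and within diet H replicates 1 and 2 lay more than 1 unit above replicates 3 and 4. MVD, the decarboxylase that forms the isoprenoid unit isopentenyl diphosphate, was at 8.44, 7.81, 7.88 and 8.44 under diet E, at 8.14, 7.70, 8.35 and 8.27 under diet F, and at 8.11, 7.496, 9.13 and 9.06 under diet H, against 7.93, 7.73, 8.02 and 7.43 under diet A. Replicates 3 and 4 of diet H were the highest of all birds for MVD and the other diets overlapped.

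The squalene steps varied most within diet F for FDFT1 and SQLE. FDFT1, squalene synthase, was at 10.79, 10.37, 9.82 and 10.25 under diet E, at 10.72, 10.03, 11.10 and 10.27 under diet F, and at 10.36, 10.33, 10.68 and 10.64 under diet H, against 10.37, 10.32, 10.43 and 10.05 under diet A. The widest spread of FDFT1 was within diet F, and the diets overlapped. SQLE, the epoxidase that adds oxygen to squalene, was at 10.06, 10.001, 9.91 and 10.38 under diet E, at 10.96, 9.60, 10.62 and 9.93 under diet F, and at 10.30, 9.82, 9.48 and 9.73 under diet H, against 9.80, 9.80, 10.16 and 9.75 under diet A. The highest SQLE bird belonged to diet F and the lowest to diet H, and the diets overlapped. LSS, which closes the ring system to lanosterol, was at 10.18, 9.53, 10.34 and 10.45 under diet E, at 10.42, 9.80, 10.69 and 9.90 under diet F, and at 10.06, 9.51, 10.68 and 10.70 under diet H, against 9.68, 9.43, 10.42 and 9.58 under diet A. Replicate 3 was the only bird of diet A in the upper range of LSS.

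The late steps were highest in replicate 1 of diet F. CYP51A1, the lanosterol demethylase, was at 11.83, 11.75, 12.14 and 12.28 under diet E, at 12.51, 11.66, 12.42 and 11.99 under diet F, and at 11.94, 11.67, 11.73 and 11.83 under diet H, against 11.62, 11.49, 12.16 and 11.49 under diet A. Replicate 3 of diet A was high for CYP51A1 and the other 3 birds of that diet low, and the diets overlapped. MSMO1, the methylsterol oxidase, was at 11.61, 11.93, 11.42 and 12.06 under diet E, at 12.45, 11.71, 11.68 and 11.26 under diet F, and at 11.80, 12.19, 10.98 and 10.60 under diet H, against 11.92, 11.44, 11.66 and 11.53 under diet A. In MSMO1, as in HMGCS1, replicates 3 and 4 of diet H were low and replicates 1 and 2 high. NSDHL, the dehydrogenase that follows MSMO1 in removing methyl groups, was at 10.72, 11.08, 10.58 and 11.14 under diet E, at 11.57, 11.005, 11.47 and 10.42 under diet F, and at 11.04, 11.17, 10.88 and 10.74 under diet H, against 11.12, 10.35, 10.99 and 10.65 under diet A. NSDHL had its highest and second highest birds under diet F, and the diets overlapped. DHCR7, which reduces dehydrocholesterol to cholesterol, was at 10.97, 11.30, 10.99 and 11.35 under diet E, at 11.60, 11.12, 11.18 and 10.55 under diet F, and at 10.96, 11.06, 10.41 and 10.26 under diet H, against 10.92, 10.82, 10.95 and 11.02 under diet A. The 4 birds of diet A were tightly grouped for DHCR7, while those of diet F ran well above and below them and replicates 3 and 4 of diet H lay below.

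**Figure D1:**
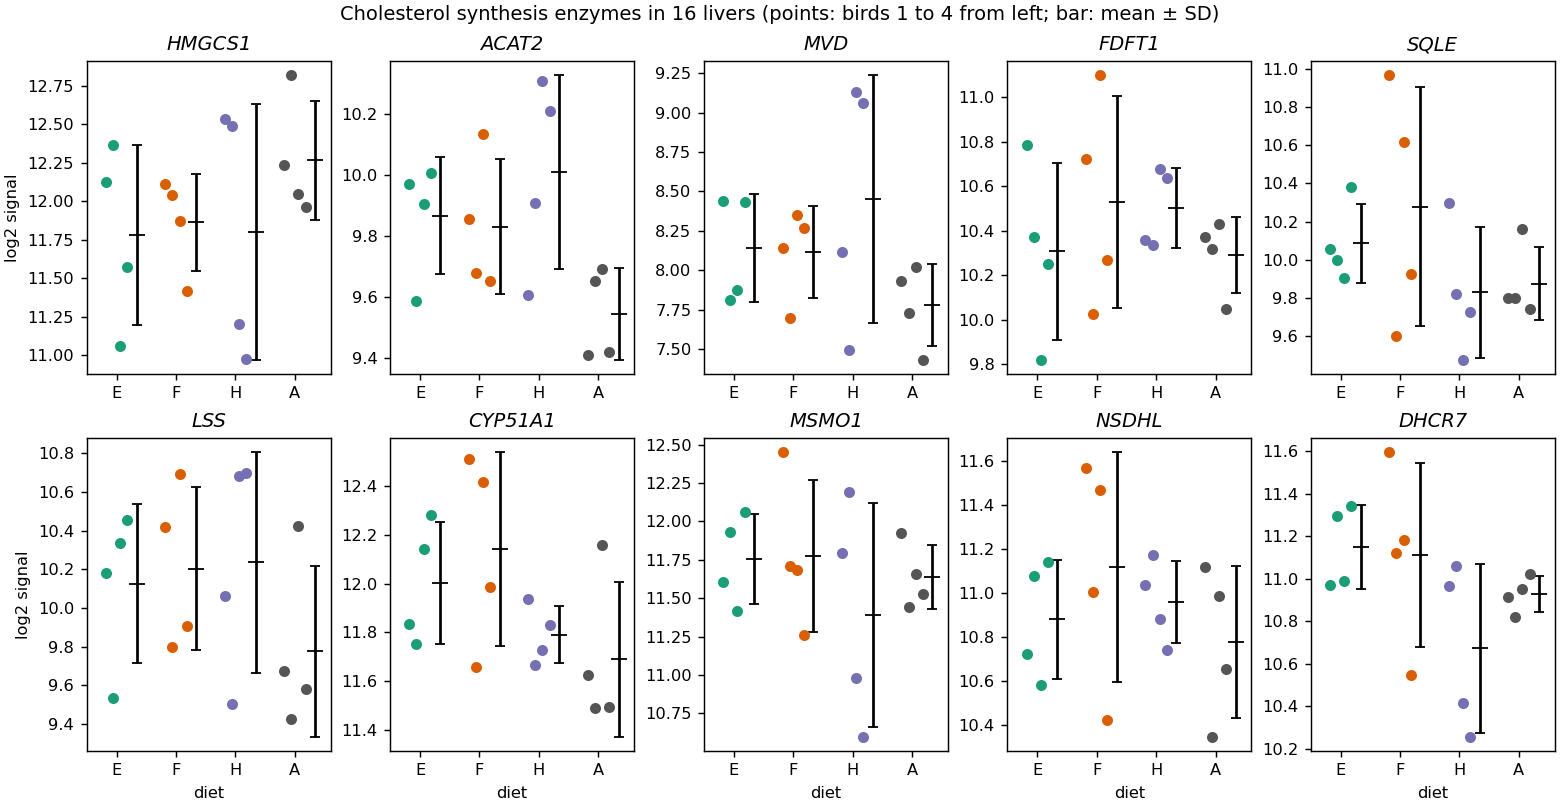
Level of each enzyme in each liver (log2 signal, y axis; axes do not start at 0 and differ between panels) by diet (x axis); points are birds 1 to 4 from left, and bars are means with SD over 4 birds. Replicates 3 and 4 of diet H are the highest birds for MVD (9.13 and 9.06) and the lowest for DHCR7 (10.41 and 10.26).

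Over the 16 birds HMGCS1 and MSMO1 had the widest range, 1.85 each, which is a 3.598-fold and a 3.603-fold difference between the highest and the lowest liver. MVD followed with 1.70 (3.25-fold) and SQLE with 1.49 (2.80-fold), and ACAT2 had the narrowest range, 0.90 (1.86-fold). The SD between birds of a diet was 0.56 for HMGCS1, which put it at the 90.1st percentile of all features, and 0.23 for ACAT2, at the 22.2nd percentile. The median feature had 0.31. Single birds recurred at the extremes: replicate 1 of diet F was the highest of 16 for 5 enzymes (SQLE, CYP51A1, MSMO1, NSDHL and DHCR7). Replicate 4 of diet H was the lowest for 3 (HMGCS1, MSMO1 and DHCR7) and replicate 2 of diet A for 3 (LSS, CYP51A1 and NSDHL).

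The diet comparisons ask whether these enzymes differed between the lettered diets. In the limma fit over all features, 0 of 10 enzymes passed an adjusted p of 0.05 in any of the 6 comparisons, and 0 features passed in each, so that the background was 0%. The F test over the 4 diets also called 0 enzymes and 0 features, with an adjusted p of 0.984 for the enzymes. Against diet A, 9 of 10 enzymes had a higher mean under diet E (median difference 0.22), 9 of 10 under diet F (0.31) and 6 of 10 under diet H (0.14). The matching medians of all features were 0.02, 0.03 and 0.05, and 53.8%, 55.6% and 56.4% of features had a higher mean. These comparisons share the 4 birds of diet A. The enzymes' median for diet E was 0.14 without replicate 4 of that diet, and for diet F 0.18 and 0.20 without replicate 1 or 3 of that diet. For diet H it was 0.036, 0.25 and 0.081 without replicate 2, 3 or 4 of diet A, 0.15 without its own replicates 3 and 4, and -0.027 among birds with title numbers above 25. The enzyme with the lower mean was HMGCS1 under both diet E and diet F.

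At an unadjusted p under 0.05, a level that 2.03% of features reached for diet E minus diet A, 0 of 10 enzymes reached it. For diet F minus diet A, 1.68% of features did, and among the enzymes CYP51A1 alone, at 0.45 ± 0.20 (SE; limma adjusted p = 0.993). For diet H minus diet A the share was 8.21%, and it held ACAT2 and MVD. ACAT2 differed by 0.46 ± 0.17 (limma adjusted p = 0.521) and MVD by 0.67 ± 0.31 (limma adjusted p = 0.521). Without replicates 3 and 4 of diet H these were 0.21 ± 0.18 and 0.03 ± 0.26. HMGCS1, at -0.47 ± 0.36 for diet H minus diet A, was at 0.25 ± 0.33 without them. In the same comparison 6 of 8 measured T and NK cell markers reached the unadjusted level, among them CD3D at 0.71 ± 0.20 and CD8A at 0.63 ± 0.24. These were 0.58 ± 0.23 and 0.56 ± 0.29 without replicates 3 and 4 of diet H. Their part in the enzyme values was not tested.

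Between the lettered diets other than A, medians stayed near 0. The medians were -0.08 for diet E minus diet F, 0.05 for diet H minus diet E and -0.11 for diet H minus diet F. Unadjusted p under 0.05 was reached by 1.35%, 2.72% and 2.6% of features in these comparisons in that order, and by 2.13% in the F test. Among the enzymes only DHCR7 reached it, for diet H minus diet E, at -0.48 ± 0.22 (SE; limma adjusted p = 0.942). It was at -0.14 ± 0.23 without replicates 3 and 4 of diet H. The median standard error of an enzyme difference was 0.247, and the 95% interval of MVD in diet H minus diet A ran from 0.03 to 1.32.

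**Figure D2:**
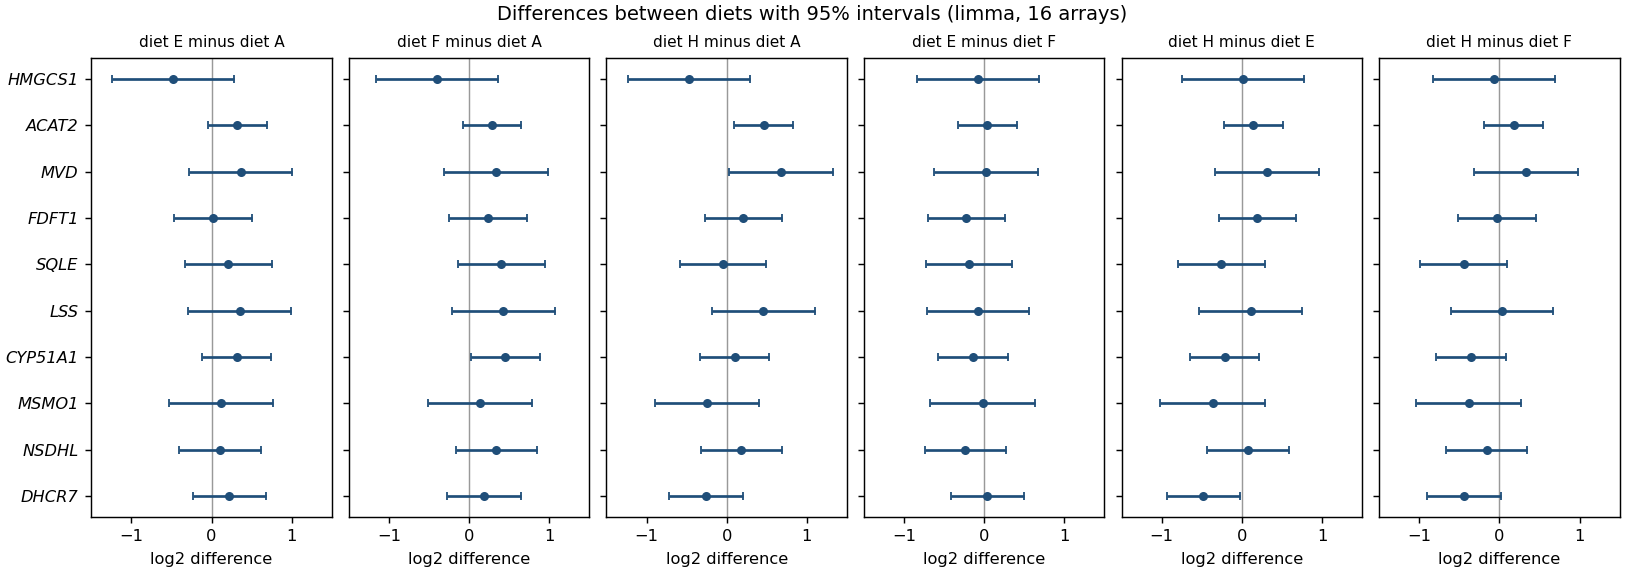
Difference in log2 signal (x axis) of each enzyme (y axis) in the 6 comparisons of diets; points are limma estimates over 16 arrays and bars are 95% intervals. Against diet A, HMGCS1 lies to the left of 0 under diets E, F and H (-0.48, -0.40 and -0.47), while ACAT2, MVD and LSS lie to the right. Under diets E and F all enzymes other than HMGCS1 lie to the right. Without replicates 3 and 4 of diet H, not drawn, diet H minus diet A was 0.25 for HMGCS1, 0.21 for ACAT2, 0.03 for MVD and 0.006 for LSS.

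Among birds with title numbers above 25, where diet H is represented by its replicates 3 and 4, limma called 26.3% of all features for diet H minus diet A and 3 of 10 enzymes. With 2 birds per diet, MVD differed by 1.37 ± 0.25 (limma adjusted p = 0.0132), ACAT2 by 0.70 ± 0.20 (limma adjusted p = 0.0420) and HMGCS1 by -0.92 ± 0.24 (limma adjusted p = 0.0295). For diet H minus diet E it called 19.3% of features and 2 enzymes, MVD at 0.94 ± 0.25 and MSMO1 at -0.95 ± 0.27. Among birds with title numbers up to 25, MVD was at -0.02 ± 0.30 for diet H minus diet A, and HMGCS1 at -0.01 ± 0.23. Diet H and the 2 arrays that stood apart cannot be told apart in these birds.

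Coordination across birds was read after the diet means were taken out. Of the 45 pairs of enzymes, 34 had a positive Pearson r, with a median of 0.34 and a range of -0.63 to 0.92. The same count was 35 with a median of 0.34 among birds with title numbers up to 25, and 45 with a median of 0.79 among those above 25. Without replicates 3 and 4 of diet H it was 39 with a median of 0.40. Each set of title numbers held 2 birds per diet. Centring leaves these 2 birds as mirror values, so each r within a set rests on few independent values.

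The highest correlation joined a pair of late enzymes. MSMO1 and DHCR7 moved together with r = 0.92 (permutation p = 0.00104) and rho = 0.91 (permutation p = 0.00223), and r was 0.88 without the 2 birds farthest from the median of MSMO1. Within title numbers up to 25 and above 25, with 2 birds per diet in each set, their r was 0.89 and 0.84. NSDHL and DHCR7 had r = 0.78 (permutation p = 0.000440) and rho = 0.72 (permutation p = 0.00265), with r = 0.60 without the 2 farthest birds. SQLE and CYP51A1 had r = 0.81 (permutation p = 0.000880) and rho = 0.64 (permutation p = 0.0195), with r = 0.69 without the 2 farthest, and 0.99 and 0.85 within the sets of title numbers. These were 45 pairs in all, and the permutation p is not adjusted for their number. In the fit over all features described below, limma adjusted p was 0.00482 for DHCR7 on MSMO1 and 0.00766 the other way. It was 0.569 for DHCR7 on NSDHL and 0.0105 the other way. For CYP51A1 on SQLE it was 0.999, and 0.800 the other way.

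LSS ran with both earlier and later enzymes. MVD and LSS had r = 0.78 (permutation p = 0.00238) and rho = 0.77 (permutation p = 0.00317), and 0.68 without the 2 farthest birds. ACAT2 and LSS had r = 0.75 (permutation p = 0.00561) and rho = 0.76 (permutation p = 0.00406), and 0.78 without the 2 farthest. LSS and CYP51A1 had r = 0.73 (permutation p = 0.00242) and rho = 0.79 (permutation p = 0.000860), and 0.71 without the 2 farthest. Their r was 0.90 without replicates 3 and 4 of diet H, the highest of the 45 pairs there. Over all 16 birds the limma adjusted p was 0.0694 for CYP51A1 on LSS and 0.946 the other way. HMGCS1 ran with MSMO1 at r = 0.71 (permutation p = 0.0335) and rho = 0.69 (permutation p = 0.0472), and 0.59 without the 2 farthest, or 0.36 without replicates 3 and 4 of diet H.

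The strongest negative values joined HMGCS1 with ACAT2 (r = -0.50), MVD (-0.59) and LSS, and MVD with MSMO1 and DHCR7. Weaker ones included ACAT2 with MSMO1 (-0.39) and DHCR7 (-0.28), and LSS with MSMO1 (-0.35) and DHCR7 (-0.21). HMGCS1 and LSS had r = -0.63 (permutation p = 0.0387) and rho = -0.55 (permutation p = 0.0596), and -0.60 without the 2 farthest. MVD and MSMO1 had r = -0.57 (permutation p = 0.173) and rho = -0.47 (permutation p = 0.194), and -0.31 without the 2 farthest. MVD and DHCR7 had r = -0.56 (permutation p = 0.115) and rho = -0.54 (permutation p = 0.114), and -0.39 without the 2 farthest. Without replicates 3 and 4 of diet H the r of these last 2 pairs was -0.0030 and -0.14. There HMGCS1 had -0.08 with ACAT2, -0.05 with MVD and -0.39 with LSS. ACAT2 then had 0.11 with MSMO1 and 0.18 with DHCR7, and LSS had 0.11 and 0.22.

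The main direction of variation between the arrays was widest within diet H. The first principal component of the diet-centred arrays, computed without the enzymes, held 44.4% of the variance, and 59.1% of features were associated with it. Replicates 1 to 4 of diet H had scores of -0.25, -0.52, 0.37 and 0.41, against -0.24 to 0.30 in the other birds. The component ran against the SD of the arrays, with r = -0.91 (permutation p = 0.000700) and rho = -0.84 (permutation p = 0.00648), and -0.87 without the 2 farthest birds. MVD followed it with r = 0.89 (permutation p = 0.00105) and rho = 0.85 (permutation p = 0.00378), and LSS with r = 0.66 (permutation p = 0.0262) and rho = 0.61 (permutation p = 0.0375). MSMO1 ran the other way with r = -0.82 (permutation p = 0.0145) and rho = -0.79 (permutation p = 0.0228), as did DHCR7 with r = -0.80 (permutation p = 0.0141) and rho = -0.77 (permutation p = 0.0266). HMGCS1 had r = -0.71 (permutation p = 0.0545) and rho = -0.70 (permutation p = 0.0622). Without the 2 farthest birds r was 0.81 for MVD, 0.49 for LSS, -0.68 for MSMO1, -0.71 for DHCR7 and -0.56 for HMGCS1. ACAT2 had r = 0.63 (permutation p = 0.0724) and rho = 0.67 (permutation p = 0.0376), FDFT1 r = 0.40 and NSDHL r = -0.43. SQLE (r = -0.19) and CYP51A1 (r = 0.14) followed the component little. Without replicates 3 and 4 of diet H, r was 0.73 for MVD, 0.43 for LSS and 0.29 for ACAT2. There it was -0.32 for HMGCS1, -0.60 for MSMO1 and -0.63 for DHCR7. Such ties are not particular to the enzymes, since 59.1% of all features were associated with the component.

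**Figure D3:**
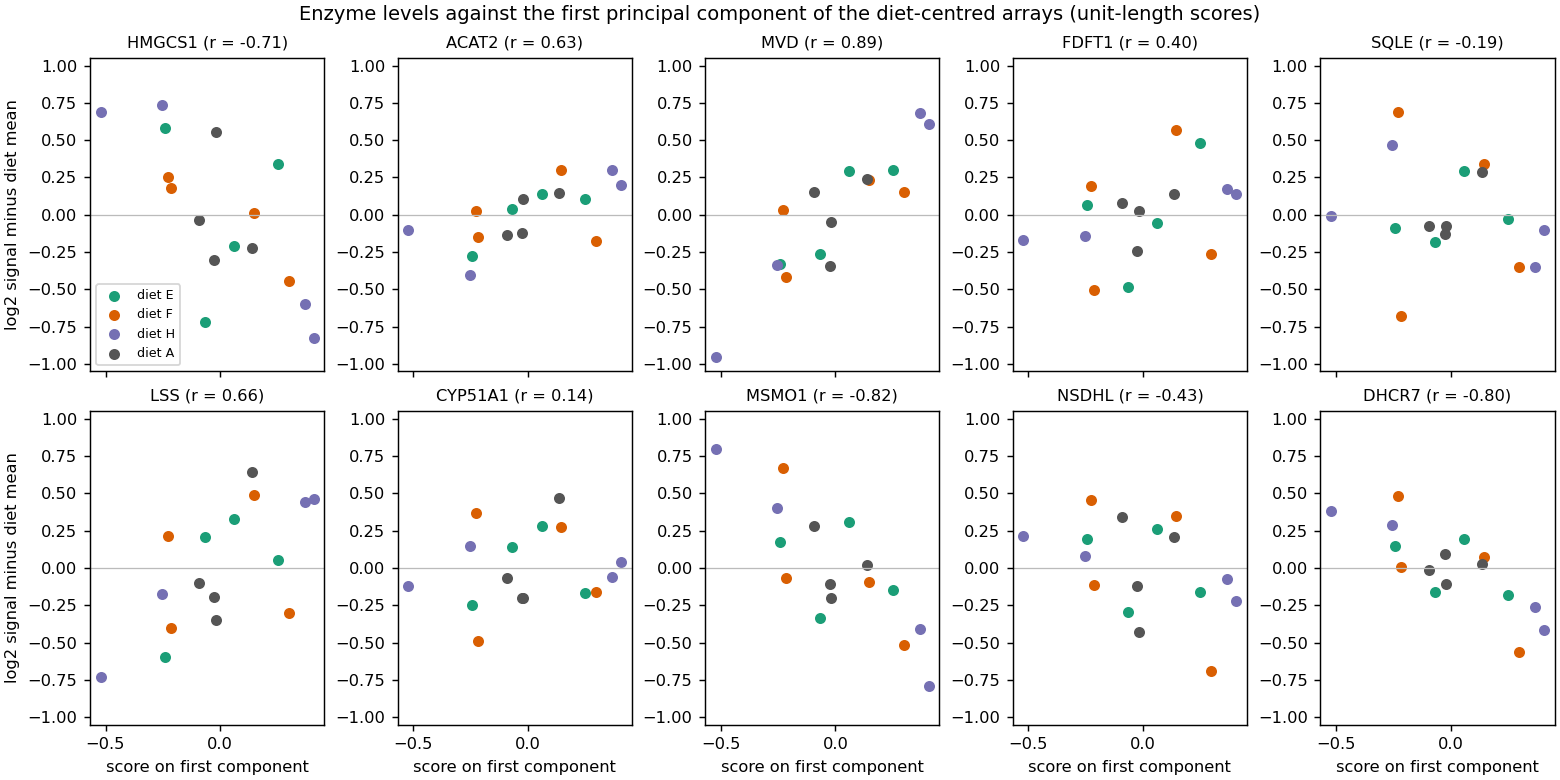
Diet-centred level of each enzyme (log2 signal minus diet mean, y axis) against the score of the array on the first principal component (x axis, unit-length scores); each point is 1 bird, coloured by diet. MVD climbs with the score (r = 0.89), MSMO1 and DHCR7 fall with it (-0.82 and -0.80), and CYP51A1 shows little slope (0.14).

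Some of the gene lists moved with the same component. The mean of 5 measured erythroid markers had r = 0.83 with it (permutation p = 0.00920) and rho = 0.84 (permutation p = 0.0158). That of 8 measured enzymes branching from mevalonate had r = -0.91 (permutation p = 0.00178) and rho = -0.90 (permutation p = 0.00171). The mean of 6 measured steroidogenic tissue markers had r = 0.84 (permutation p = 0.00324) and rho = 0.69 (permutation p = 0.0262), and that of the 4 other measured cholesterol synthesis genes r = 0.69 (permutation p = 0.0330) and rho = 0.57 (permutation p = 0.0855). The erythroid mean ran from 6.54 to 7.11 under diet E, 6.18 to 7.47 under diet F and 6.26 to 7.40 under diet H, against 6.48 to 6.75 under diet A. The hepatocyte mean had r = -0.65 (permutation p = 0.0454) and rho = -0.61 (permutation p = 0.0588), but its genes were split. APOA1 (r = 0.89), AMBP (0.82), SERPINC1 (0.74) and HNF4A (0.62) rose with the component. The other measured hepatocyte markers fell with it, among them APOB (-0.97) and ALB (-0.86). DOLK of the mevalonate branch (0.77) and ACAT1 of the other cholesterol synthesis genes (-0.52) ran against their list means, and HBE of the erythroid list had 0.03. The means of the remaining lists followed the component less closely, with a permutation p of r above 0.05 for each. Their r was 0.04 for bile duct, 0.28 for macrophage, 0.29 for T and NK cell and 0.53 for stellate and fibroblast markers. It was 0.23 for fatty acid synthesis and -0.57 for sterol control and uptake. Several of these means also held genes that followed the component in opposite directions. Examples were SREBF2 (0.88) and INSIG2 (-0.94) of sterol control, KRT7 (0.88) and EPCAM (-0.55) of the bile duct, and COL1A2 (0.89) and TIMP3 (-0.68) of the stellate list. The part of these lists in the correlations of the enzymes was not tested.

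A limma fit with diet means and 1 enzyme as covariate was then run over all other features, to set each pair against the background. With HMGCS1, 13.3% of features were called and 1 of 9 enzymes (MSMO1). With MVD, 48.7% of features were called and 4 enzymes (ACAT2 and LSS with a positive slope, HMGCS1 and MSMO1 with a negative one). With MSMO1 it was 37.8% and 3 enzymes (HMGCS1, NSDHL and DHCR7), and with DHCR7 34.7% and 4 (HMGCS1, SQLE, MSMO1 and NSDHL). In these fits the enzymes were called about as often as features in general. With ACAT2 and LSS, 0.111% and 0.288% of features were called, and with FDFT1, SQLE, CYP51A1 and NSDHL 0%, with 0 enzymes in each. DHCR7 on MSMO1 had a limma adjusted p of 0.00482 and LSS on MVD one of 0.00319. In all, 12 of 90 ordered pairs were called. Without replicates 3 and 4 of diet H, 0 pairs and 0 features were called.

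With the first component taken out as well, more pairs were positive. The number of positive pairs was 42 of 45, with a median r of 0.57, and 36 of 36 among the pairs without HMGCS1 (median 0.62). MVD and MSMO1, at -0.57 before, were at 0.63, and MVD and DHCR7, at -0.56 before, at 0.58. LSS and CYP51A1 had the highest value, 0.87, and SQLE and CYP51A1 0.86. HMGCS1 had lower values, from -0.30 with LSS to 0.32 with MSMO1, except for 0.61 with FDFT1. With MSMO1 it had been at 0.71 before.

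**Figure D4:**
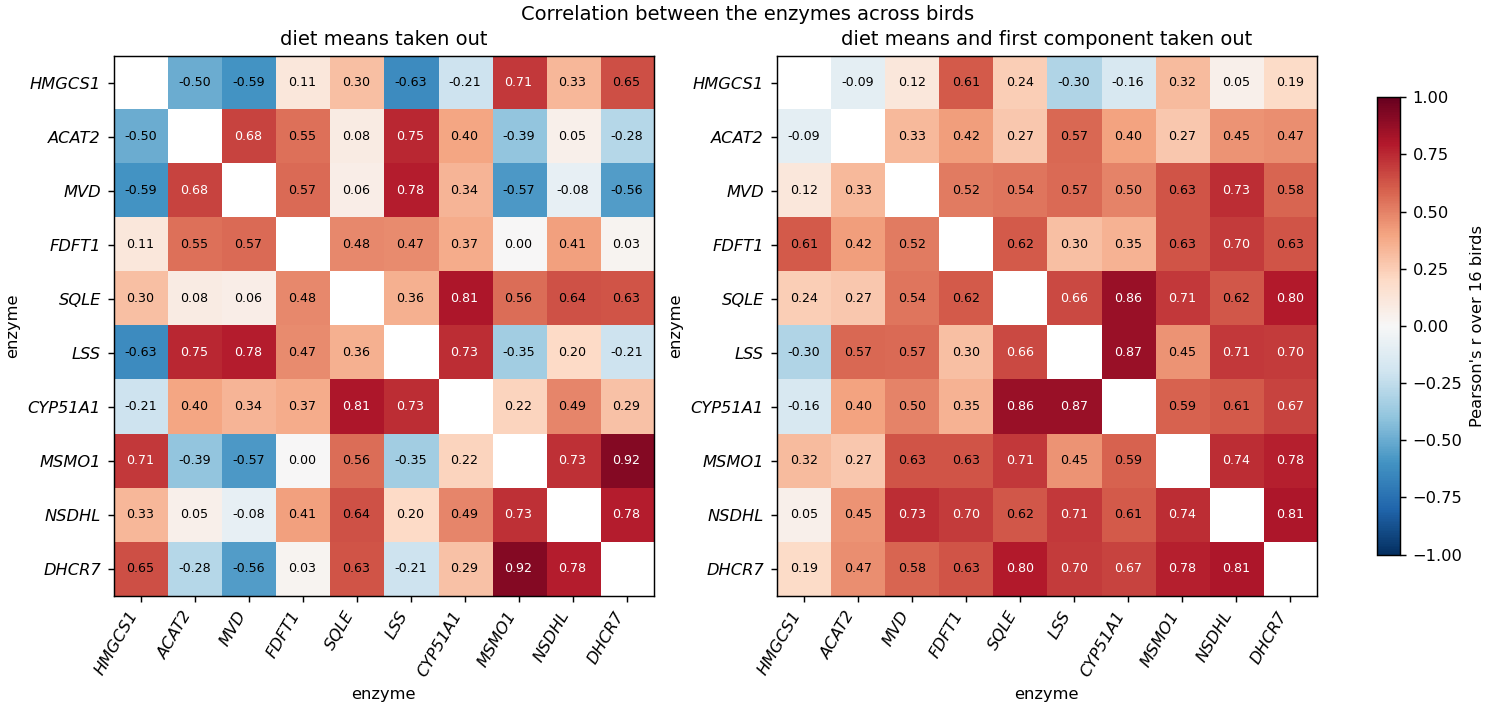
Pearson's r (colour and number) between the diet-centred levels of each pair of enzymes (both axes) over 16 birds, with diet means taken out on the left and the first component also taken out on the right. On the left ACAT2, MVD and LSS go against HMGCS1, MSMO1 and DHCR7. Without replicates 3 and 4 of diet H, not drawn, r of these pairs ran from -0.39 to 0.22. On the right 42 of 45 pairs are positive.

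In the fit with that component, a positive slope at an unadjusted p under 0.05 was counted, a rule chosen after seeing the data. With NSDHL as covariate it held for 7 of 9 enzymes and 2.33% of features, and with DHCR7 for 7 and 2.37%. With SQLE it held for 6 and 2.02%, and with MSMO1 for 6 and 2.15%. With MVD, FDFT1, LSS and CYP51A1 it held for 5 enzymes each, against 2.45%, 2.18%, 4.52% and 3.97% of features. ACAT2 (LSS) and HMGCS1 (FDFT1) had 1 each, against 3.16% and 3.32%. A negative slope at that level was seen for 0 enzymes, and 0 enzymes passed after adjustment over all features.

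The genes most like the enzymes were ranked by r between their diet-centred level and the mean of the 10 enzymes, over 16 birds and 9585 genes. The enzymes did not share in this mean alike. The r of an enzyme with the mean of the other 9 ran from 0.01 (MVD) and 0.03 (HMGCS1) to 0.75 (NSDHL) and 0.82 (SQLE). All values come from the same arrays and are a description. RDH11, a retinol dehydrogenase, led with 0.85, followed by STARD5, a lipid transfer protein, with 0.84 and IDI2, an isopentenyl diphosphate isomerase, with 0.82. ZFP91 (0.78), MCC (0.73), BZW1 (0.72), LRRC8C (0.69), METTL23 (0.68), COX18 (0.68), CAMLG (0.67), PGP (0.67), STARD4 (0.66), AACS (0.66), TIPIN (0.66) and RAP2A (0.66) completed the first 15. STARD4 carries sterol and AACS activates acetoacetate for lipid synthesis. At the other end stood PPFIA2 (-0.82), EEF1A1 (-0.78), LRRC49 (-0.75), AP5M1 (-0.68) and FBLN5 (-0.67). The median over genes was 0.01. Of the 15 most like, 9 were also among the first 15 without replicates 3 and 4 of diet H, and 7 with the first component taken out. The diet-centred mean of the enzymes spread most within diet F, at 0.34, -0.26, 0.25 and -0.33. In replicates 3 and 4 of diet H it was -0.015 and -0.091, so leaving these out tests the ranking little. The ranking was not repeated without birds of diet F.

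RDH11 was at 7.75, 7.69, 7.98 and 8.19 under diet E, at 8.93, 7.70, 8.75 and 7.46 under diet F, and at 7.81, 7.79, 8.05 and 7.85 under diet H, against 7.36, 7.52, 8.27 and 7.01 under diet A. Replicates 1 and 3 of diet F were high, as in SQLE and NSDHL.

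**Figure D5:**
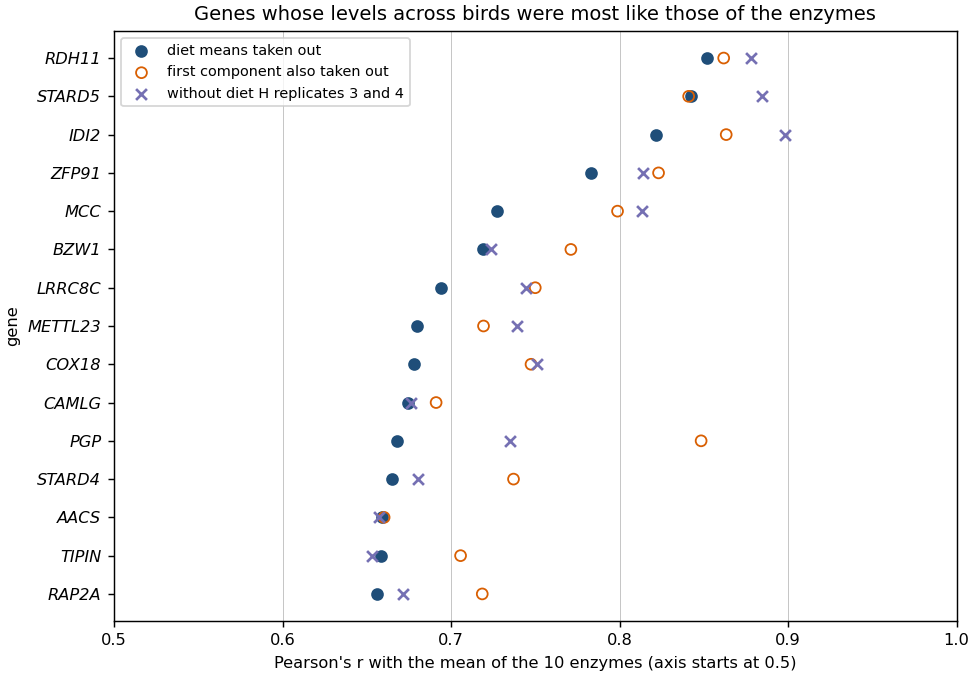
Pearson's r with the mean of the 10 enzymes (x axis, starting at 0.5) for the 15 most similar genes (y axis), with diet means taken out (filled), with the first component also taken out (open) and without replicates 3 and 4 of diet H (crosses). RDH11, STARD5 and IDI2 lead, at 0.85, 0.84 and 0.82.

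Other genes of the pathway and its control were read from fixed lists. Of 15 further cholesterol synthesis genes, 4 were measured: ACAT1, FAXDC2, HSD17B7 and ERG28, and limma called 0 of 4 in the comparisons with diet A, with 2 at an unadjusted p under 0.05 for diet H (HSD17B7 and ERG28) and 0 for diets E and F. ERG28, a scaffold of the sterol demethylation enzymes in yeast, was at 11.47, 12.06, 12.29 and 12.13 under diet H, against 11.47, 11.01, 11.38 and 10.74 under diet A. The difference was 0.84 ± 0.24 (SE; limma adjusted p = 0.521). HSD17B7, the ketosteroid reductase that acts with NSDHL, differed by 0.62 ± 0.24. The values were 0.62 ± 0.30 for ERG28 and 0.19 ± 0.24 for HSD17B7 without replicates 3 and 4 of diet H. FAXDC2 and ACAT1 had lower means under diet H than under diet A, at -0.30 and -0.15. For ERG28 the lowest bird of diet H, at 11.472, lay just above the highest of diet A, at 11.467, while for HSD17B7 the diets overlapped. Of all 20804 features, 446 had no overlap between diets H and A, in either direction.

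SREBF2, which encodes SREBP2, was at 10.02, 9.47, 9.75 and 9.99 under diet E, at 9.98, 9.60, 10.45 and 10.02 under diet F, and at 9.81, 9.36, 10.56 and 10.47 under diet H, against 9.41, 9.53, 9.89 and 9.27 under diet A. Of 9 measured genes of sterol control and uptake, limma called 0 against diet A, and 0 reached an unadjusted p under 0.05. SREBF2 had r = 0.33 with the mean of the enzymes (rank 574 of 9585 genes) and 0.87 with the first component taken out (rank 2). INSIG1, which holds SREBP in the endoplasmic reticulum, had 0.46 and 0.73. Over the 9 genes the median was 0.13 both before and after. SCAP, the escort of SREBP, had -0.19 and -0.21, MBTPS1, a protease that cuts it, -0.07 and -0.43, and INSIG2 0.13 and 0.12. SREBF1, whose product acts mainly on fatty acid genes, had -0.03 and 0.13. SREBF2 and INSIG1 themselves followed the first component, with r = 0.88 and -0.86. Their values with it taken out therefore rest on the smaller part of their variation between birds. HLCS, at rank 1 with the component taken out, had r = -0.97 with the component and rank 570 before.

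Of 5 measured genes of fatty acid synthesis, limma called 0 against diet A, and 1 (FASN, for diet F) reached an unadjusted p under 0.05. FASN, fatty acid synthase, was at 13.42, 12.98, 13.14 and 12.53 under diet F, against 12.13, 12.003, 13.00 and 11.74 under diet A, a difference of 0.80 ± 0.36 (SE; limma adjusted p = 0.993). Replicate 3 of diet A overlapped the birds of diet F. In the fit with the first component, FASN, ELOVL6, ME1 and THRSP had a positive slope at an unadjusted p under 0.05 on ACAT2 and on LSS, 4 of 5 genes for each, against 3.16% and 4.52% of all features. With HMGCS1, MVD, FDFT1, SQLE and MSMO1 the count was 0 of 5, with NSDHL it was 1 (THRSP), and with CYP51A1 and with DHCR7 it was 2 (ELOVL6 and ME1). Among markers of other cell types, those of smallest p were ANXA13 (0.77 ± 0.24) and SPP1 (0.69 ± 0.26) of the bile duct list, and TIMP3 (0.36 ± 0.16) of the stellate cell and fibroblast list for diet E minus diet A. CYP19A1 of the steroidogenic list was also among them but lay above the 20th percentile of all values on 0 of 16 arrays, so its difference is not given. For diet F minus diet A they were EOMES (0.46 ± 0.24) and CD8A (0.44 ± 0.24), and for diet H minus diet A, beside CD3D and CD8A, the macrophage marker LY86 (-0.54 ± 0.16, or -0.33 ± 0.17 without replicates 3 and 4 of diet H). Of the 6 measured macrophage markers, 3 had a higher mean under diet H, with a median of 0.01. None of these was called by limma after adjustment, and their part in the enzyme values was not tested.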

How the data were processed

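Liver RNA of 16 birds was hybridised to 1-colour Affymetrix arrays with biotin label, per the labels' protocols. The authors deposited log2 values between 0.93 and 14.63, and the software was GCOS 1.1.1, per the submitters' processing notes. No source used here gives the background correction, the summarization, the normalization or the genome build of the array. All sample columns were used (0 columns not used).

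Each feature was fitted in limma 3.58.1 (R 4.3.3) with 4 diet means over 16 arrays (12 residual degrees of freedom), and p was adjusted by Benjamini-Hochberg over all 20804 features, two-sided, at 0.05. Errors of differences are standard errors. The fits were tested on simulated data with independent noise and, unlike these arrays, no component shared between features. That simulation cannot show how the fits on an enzyme behave where such a component is present. Pairs were correlated after diet centring, with two-sided p from 100000 permutations within diets. Replicate numbers follow accession order and name birds only. The labels do not say that birds were housed apart, so p-values measure the spread between these samples. Precision is limited by how many arrays there are.

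The members and lists were chosen with earlier results of these data known. Named were the 10 enzymes, list genes past a threshold or among the 4 smallest p of a comparison, and the 15 most and 5 least like genes above the 20th percentile of all values. Other genes of these lists that are described were chosen after their values were seen. Alternatives covered scaling, fits, omitted birds, title numbers and the first component.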

Additional observations from a re-analysis of the deposited data

Results flagged for a closer look

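Among 40 groups of 4 birds (10 enzymes in 4 diets), 1 held a bird far from the others. SQLE in replicate 3 of diet A was at 10.16, while the other 3 birds of that diet lay between 9.75 and 9.80. Its gap to the next bird was 0.866 of the range, above Dixon's critical value for 4 values. Chance gives such a bird in about 1 of 20 groups.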

How the results depend on the processing

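No paired analysis was possible because the replicate numbers follow accession order and pair no birds. Each of the 60 enzyme differences was recomputed under 26 alternatives, and 5 of 1560 values were called, all among birds with title numbers above 25. Changes of sign were counted only among the 30 differences larger than their standard error in the full fit. Without replicates 3 and 4 of diet H, 7 of these turned: HMGCS1 (0.25) and DHCR7 (0.083) for diet H minus diet A, MVD (-0.33) and MSMO1 (0.24) for diet H minus diet E, and ACAT2 (-0.073), MVD (-0.31) and MSMO1 (0.22) for diet H minus diet F. Among title numbers up to 25, 8 of the 30 turned: MVD (-0.023) and DHCR7 (0.14) for diet H minus diet A, MVD (-0.32), SQLE (0.029), CYP51A1 (0.0077) and MSMO1 (0.22) for diet H minus diet E, and ACAT2 (-0.0100) and MVD (-0.12) for diet H minus diet F. Smaller differences also changed sign in both settings and are not listed, such as MSMO1 for diet H minus diet A (-0.25, and 0.36 without replicates 3 and 4 of diet H). With the first component as covariate, chosen after seeing the data, DHCR7 was at 0.022 for diet H minus diet A. The cause was not tested.

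Among title numbers above 25, features called were 1 for diet F minus diet A, 5472 for diet H minus diet A and 4008 for diet H minus diet E, against 0 in the full fit. Leaving out 1 bird gave 0 features called in each comparison. The pairs called, 12 of 90, were 0 without replicates 3 and 4 of diet H. With the set of title numbers (up to 25 or above 25) as covariate they were 2. They were 24 without diet means and 0 with the first component, and 4 to 17 when 1 bird was left out (lowest without replicate 2 of diet H). They were 6 without replicate 1, 6 without replicate 3 and 5 without replicate 4 of diet H. The median r of 0.34 was 0.30 with all features of a gene averaged and 0.40 without replicates 3 and 4 of diet H. It was 0.45 with the set of title numbers as covariate, 0.57 with the first component and 0.79 among title numbers above 25. When 1 bird was left out it was 0.26 to 0.41. With 4 birds per diet, differences of the size seen here were near their standard errors.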
